A study of Mus musculus with 20 samples.

Results

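The genes followed here encode hormones that white adipocytes secrete and proteins that store and release fat in their lipid droplets. The set was a list of 10 genes given by name, with no threshold on their values: *Lep*, *Adipoq*, *Retn*, *Cfd*, *Plin1*, *Plin4*, *Cidec*, *Lipe*, *Pnpla2* and *Fabp4*. Each gene was represented by the array feature that carried its symbol alone and had the highest mean over all arrays. Of the 10 genes, 9 had such a feature, and they are 9 of the 22180 genes tested. *Cfd*, which encodes adipsin, was not analysed here. Expression was measured on microarrays in whole abdominal skin of 20 C57/B6 mice aged 9 weeks, 1 array per mouse. The mice ate a high fat diet (HFD) or control chow (CD), and all had a daily dose of 62.5 mg of cream on the shaved abdomen over 5 days. They were killed 24 h later. The cream was Aldara with 5% imiquimod (IMQ), an activator of Toll-like receptor 7 that causes psoriasis-like inflammation in mouse skin, or vehicle. The groups were HFD-IMQ, HFD-vehicle, CD-IMQ and CD-vehicle, with 5 mice in each. The composition of the diet and the length of feeding were not given in the sources used here.

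White adipocytes hold triglyceride in a single large droplet coated with perilipins. When energy is needed, adipose triglyceride lipase and hormone-sensitive lipase cut that triglyceride into fatty acids, which fatty acid binding protein 4 carries through the cytoplasm. Adipocytes also secrete hormones: leptin, which reports the size of the fat store to the brain, adiponectin, which raises insulin sensitivity, and, in mice, resistin. Mouse skin contains a layer of dermal adipocytes below the hair follicles, and that layer thickens and thins with the hair cycle. In whole skin, fewer adipocytes and less RNA per adipocyte cannot be told apart.

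The deposited values are on a log2 scale, so a difference of 1 is a doubling. The median of an array lay between 2.86 and 3.04, and the highest value on an array was between 12.9 and 13.1. All 9 genes had group means above the array medians in every group. The mean over the 9 genes lay between 7.04 and 9.08 over the HFD-IMQ arrays, 7.60 and 8.57 over HFD-vehicle, 7.01 and 8.65 over CD-IMQ, and 7.67 and 9.08 over CD-vehicle. Within its group, HFD-vehicle mouse 3 held 42.8% of the squared distance of all genes from the group mean, HFD-IMQ mouse 4 held 30.0% and CD-vehicle mouse 3 held 28.4%. With 5 arrays an even split would give each array the same share, and the number of arrays limits the precision of every value below.

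The promoters of 3 of the genes are shown because they carry the contrast described below: *Lep*, which fell after IMQ in both diets, *Plin4*, which fell in CD-fed mice, and *Adipoq*, which did not pass the test in either. The sequences are from RefSeq on GRCm38.p6 and give the 250 bases before the annotated start, 5′ to 3′ on the strand of the gene. They lie at chr6:29059971-29060220 on the plus strand for *Lep*, chr17:56109783-56110032 on the minus strand for *Plin4* and chr16:23146286-23146535 on the plus strand for *Adipoq*. Capitals in *Lep* mark the palindrome TTGCGCAA and the GC box GGGCGG. Capitals in *Plin4* and *Adipoq* mark CCAAT, which on the other strand reads ATTGG.
Lep: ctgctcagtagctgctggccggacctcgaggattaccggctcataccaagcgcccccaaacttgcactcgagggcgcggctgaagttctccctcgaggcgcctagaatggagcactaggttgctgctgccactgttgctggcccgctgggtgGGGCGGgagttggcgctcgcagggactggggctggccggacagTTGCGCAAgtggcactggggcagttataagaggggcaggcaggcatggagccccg
Plin4: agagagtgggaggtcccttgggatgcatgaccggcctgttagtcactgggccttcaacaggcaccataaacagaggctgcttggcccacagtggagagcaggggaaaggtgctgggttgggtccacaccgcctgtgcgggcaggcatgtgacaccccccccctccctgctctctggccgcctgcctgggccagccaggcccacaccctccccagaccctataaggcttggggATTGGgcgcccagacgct
Adipoq: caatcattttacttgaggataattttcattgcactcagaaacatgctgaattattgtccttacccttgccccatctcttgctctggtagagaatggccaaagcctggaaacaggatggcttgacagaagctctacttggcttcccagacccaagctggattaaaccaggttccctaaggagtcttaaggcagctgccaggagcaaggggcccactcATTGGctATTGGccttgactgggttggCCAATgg
The palindrome TTGCGCAA, a form of the element that C/EBP factors bind, begins at position -55 from the *Lep* start. Over 300-base windows of 250 bases before to 50 after each start, 0.183% of 32851 mouse promoters hold it on either strand. The GC box of *Lep* begins at position -98. That motif is held by 35.7% of promoters and by 3 of the 11 member promoters, those of *Lep*, *Lipe* and *Pnpla2*. CCAAT begins at position -18 on the opposite strand in *Plin4*, and at -34 and -27 on the opposite strand and -7 on the gene's own strand in *Adipoq*. CCAAT occurs in 37.4% of promoters. The looser form TTGCNNAA, which includes TTGCGCAA, is held by 10.8% of promoters and by 3 of the 11 member promoters, those of *Lep*, *Cidec* and *Plin1*. The E-box CACGTG, in 7.15% of promoters, was found in that of *Lipe*. The letters of the TATA box TATAAA, in 13.6% of promoters, and of the direct repeat with 1 free base that PPAR factors bind, in 0.0396%, are not in any of these 11 windows. Promoters of 9 of the 10 genes were in the table, and that of *Fabp4* was not used here. These matches describe letters and not occupied sites.

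**Figure D1:**
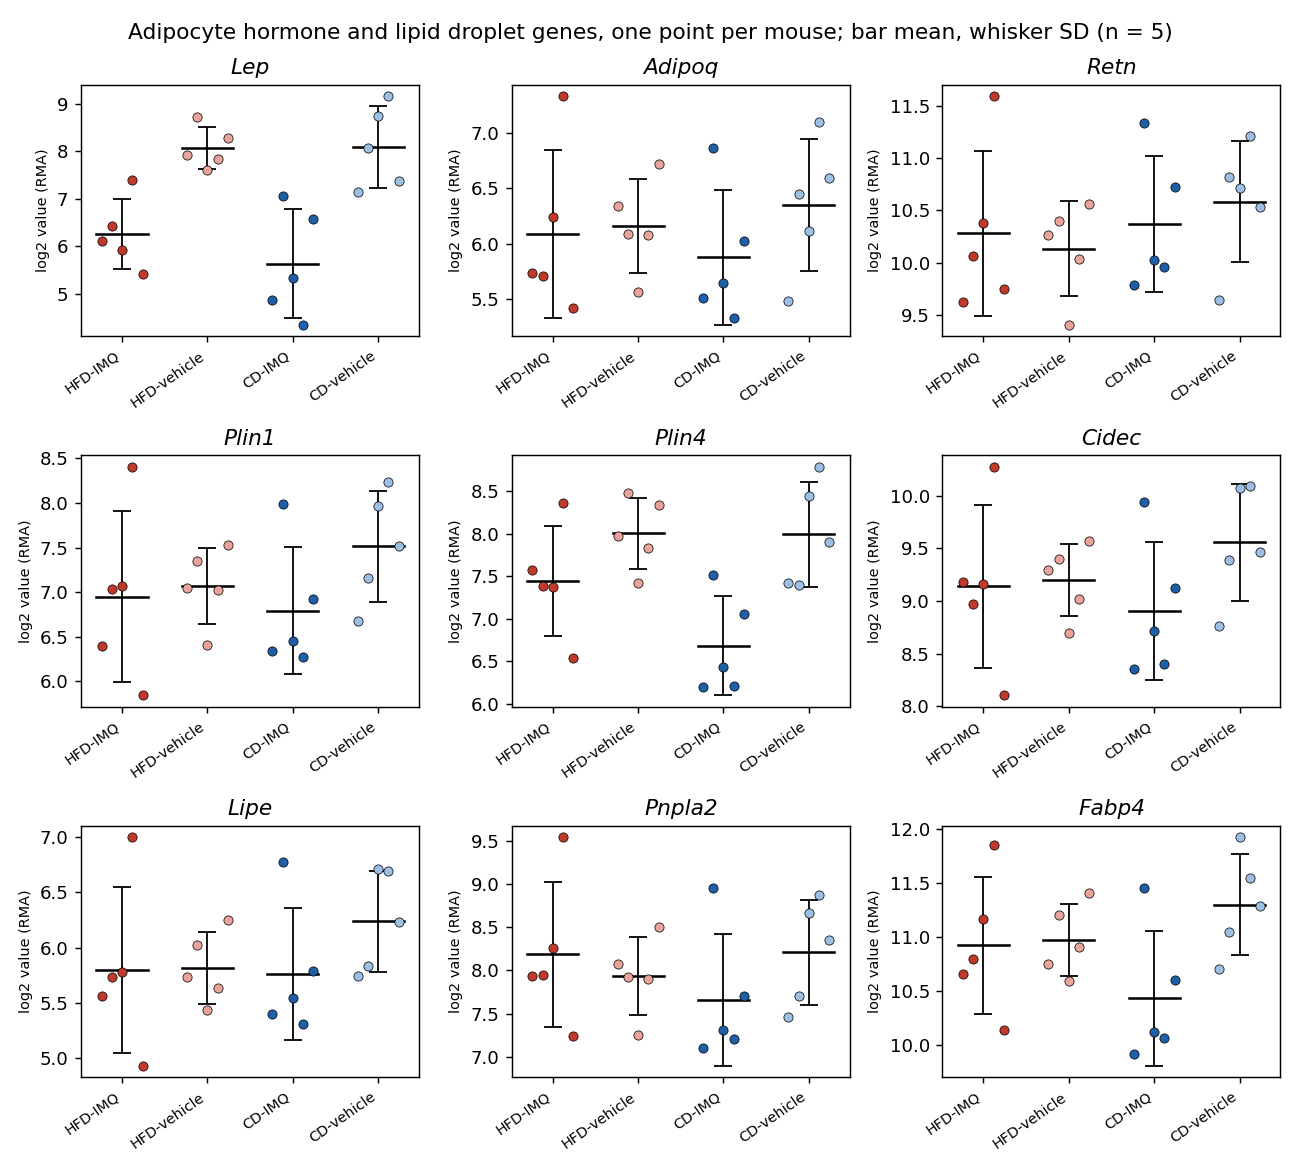
Log2 array value (vertical axis) of the 9 measured adipocyte genes in the HFD-IMQ, HFD-vehicle, CD-IMQ and CD-vehicle groups, with 1 point per mouse and a bar at the group mean. *Lep* points of the IMQ groups lie below all vehicle points of the same diet, while for genes such as *Adipoq* and *Retn* the groups overlap.

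IMQ was set against vehicle within each diet to ask what the cream did to these genes. In HFD-fed mice 1 of the 9 genes fell, *Lep*, where 2.24% of all genes were called lower and 5.89% in either direction. In CD-fed mice 2 of the 9 fell, *Lep* and *Plin4*, where 7.02% of all genes were called lower and 10.9% in either direction. A gene was called at a limma adjusted p below 0.05, adjusted by Benjamini-Hochberg over all 22180 genes. The median log2 change of the 9 genes was -0.057 in HFD-fed mice, against -0.00067 over all genes, and -0.65 in CD-fed mice, against 0.016 over all genes. In HFD-fed mice 7 of the estimates were negative and 2 positive, and in CD-fed mice all 9 were negative. Leaving out each array in turn, the number of negative estimates in HFD-fed mice ranged between 2, without HFD-IMQ mouse 5, and 9, without HFD-IMQ mouse 4, while in CD-fed mice it stayed at 9. The median in HFD-fed mice was 0.16 and -0.34 in those same fits, and in CD-fed mice it ranged between -0.91 and -0.51 over all 20. Because the genes share the same arrays and move together, these counts are not independent of each other.

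*Lep*, on chromosome 6, encodes leptin, the satiety hormone of fat. Its log2 values were 6.12, 6.43, 5.92, 7.39 and 5.41 in HFD-IMQ skin, against 7.92, 8.73, 7.60, 7.84 and 8.27 in HFD-vehicle skin. They were 4.87, 7.05, 5.33, 4.35 and 6.57 in CD-IMQ skin, against 7.13, 8.08, 8.74, 9.15 and 7.38 in CD-vehicle skin. The highest IMQ value lay below the lowest vehicle value in each diet, a pattern that 2.39% of all genes showed as lower in HFD-fed mice and 5.1% in CD-fed mice. The mean was 6.26 ± 0.74 in HFD-IMQ and 8.07 ± 0.44 in HFD-vehicle skin (SD, n = 5 each). In CD-fed mice it was 5.64 ± 1.14 with IMQ and 8.10 ± 0.86 with vehicle (SD, n = 5 each). The log2 change was -1.82 ± 0.45 (SE), 3.53-fold lower, in HFD-fed mice (limma adjusted p = 0.0151). In CD-fed mice it was -2.46 ± 0.45 (SE), 5.51-fold lower (limma adjusted p = 0.000892). The 95% intervals of these changes were -2.76 to -0.88 with HFD and -3.40 to -1.52 with CD. In HFD-fed mice the call was lost without HFD-IMQ mouse 5 (limma adjusted p = 0.0546) or HFD-vehicle mouse 2 (0.0508), and held for the other 18 arrays. In CD-fed mice *Lep* was called whichever array was left out, with changes of -2.81 to -2.14.

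*Adipoq*, on chromosome 16, encodes adiponectin. Its log2 values were 5.73, 5.71, 6.24, 7.33 and 5.42 in HFD-IMQ skin, against 6.34, 6.08, 5.56, 6.08 and 6.72 in HFD-vehicle skin. They were 5.51, 6.86, 5.64, 5.33 and 6.02 in CD-IMQ skin, against 5.48, 6.45, 6.11, 7.09 and 6.59 in CD-vehicle skin. The groups overlapped in both diets, and the highest values of the IMQ groups were those of HFD-IMQ mouse 4 and CD-IMQ mouse 2. The log2 change was -0.070 ± 0.33 in HFD-fed mice and -0.47 ± 0.33 in CD-fed mice (limma adjusted p = 0.961 and 0.428). The 95% interval in CD-fed mice, -1.16 to 0.22, leaves room for a fall of more than 1 log2 unit. *Retn*, on chromosome 8, encodes resistin. Its means were 10.3 ± 0.79 in HFD-IMQ, 10.1 ± 0.45 in HFD-vehicle, 10.4 ± 0.65 in CD-IMQ and 10.6 ± 0.58 in CD-vehicle skin (SD, n = 5 each). Its changes after IMQ were 0.15 ± 0.34 in HFD-fed and -0.22 ± 0.34 in CD-fed mice, and neither passed the test (limma adjusted p = 0.905 and 0.763).

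Of the droplet coat genes, *Plin4*, on chromosome 17, fell in CD-fed mice. It encodes perilipin 4, a long member of the perilipin family found in adipocytes. Its log2 values were 7.58, 7.39, 7.38, 8.36 and 6.54 in HFD-IMQ skin, against 7.97, 8.47, 7.42, 7.83 and 8.34 in HFD-vehicle skin. They were 6.20, 7.52, 6.43, 6.21 and 7.05 in CD-IMQ skin, against 7.42, 7.40, 8.45, 8.79 and 7.90 in CD-vehicle skin. In CD-fed mice 4 IMQ arrays lay below every vehicle array, and CD-IMQ mouse 2 reached into the vehicle range. In HFD-fed mice the ranges overlapped. The log2 change was -0.56 ± 0.32 (SE) in HFD-fed mice, which did not pass the test (limma adjusted p = 0.406), and -1.31 ± 0.32 (SE), 2.48-fold lower, in CD-fed mice (limma adjusted p = 0.00820). Leaving out each array in turn kept the call in CD-fed mice, with changes of -1.52 to -1.11 and adjusted p of 0.00302 to 0.0304.

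*Plin1*, on chromosome 7, encodes perilipin 1, the coat protein that gates access of the lipases. Values on the log2 scale were 6.39, 7.04, 7.07, 8.41 and 5.84 in HFD-IMQ skin, against 7.05, 7.35, 6.41, 7.02 and 7.53 in HFD-vehicle skin. They were 6.33, 7.98, 6.46, 6.27 and 6.92 in CD-IMQ skin, against 6.68, 7.16, 7.97, 8.24 and 7.52 in CD-vehicle skin. The ranges overlapped in both diets, and the highest value of all 20 arrays was that of HFD-IMQ mouse 4. The log2 change was -0.12 ± 0.39 in HFD-fed and -0.72 ± 0.39 in CD-fed mice (limma adjusted p = 0.936 and 0.268). *Cidec*, on chromosome 6, encodes the droplet protein FSP27, which helps small droplets merge. Its means were 9.14 ± 0.77 in HFD-IMQ, 9.20 ± 0.34 in HFD-vehicle, 8.91 ± 0.66 in CD-IMQ and 9.56 ± 0.55 in CD-vehicle skin (SD, n = 5 each). The change after IMQ was -0.057 ± 0.33 in HFD-fed and -0.65 ± 0.33 in CD-fed mice (limma adjusted p = 0.967 and 0.241).

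The lipases were measured by *Pnpla2* and *Lipe*, both on chromosome 7. *Pnpla2* encodes adipose triglyceride lipase, which makes the first cut. Its log2 values were 7.94, 7.95, 8.25, 9.54 and 7.24 in HFD-IMQ skin, against 8.07, 7.92, 7.26, 7.91 and 8.51 in HFD-vehicle skin. They were 7.10, 8.95, 7.32, 7.20 and 7.70 in CD-IMQ skin, against 7.46, 7.71, 8.66, 8.87 and 8.35 in CD-vehicle skin. HFD-IMQ mouse 4 was the highest of all 20 arrays, and the ranges overlapped. Its change was 0.25 ± 0.37 in HFD-fed and -0.55 ± 0.37 in CD-fed mice, with neither past the test (limma adjusted p = 0.830 and 0.398). *Lipe* encodes hormone-sensitive lipase, which acts on the product of the first cut. Its means were 5.80 ± 0.75 in HFD-IMQ, 5.82 ± 0.32 in HFD-vehicle, 5.76 ± 0.59 in CD-IMQ and 6.24 ± 0.46 in CD-vehicle skin (SD, n = 5 each). Its change was -0.015 ± 0.30 in HFD-fed and -0.48 ± 0.30 in CD-fed mice (limma adjusted p = 0.991 and 0.370).

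*Fabp4*, on chromosome 3, encodes the fatty acid carrier of adipocytes, which macrophages also make. Log2 values of the gene were 10.66, 10.80, 11.16, 11.85 and 10.14 in HFD-IMQ skin, against 10.75, 11.20, 10.59, 10.91 and 11.41 in HFD-vehicle skin. They were 9.92, 11.45, 10.12, 10.07 and 10.60 in CD-IMQ skin, against 10.70, 11.04, 11.92, 11.54 and 11.28 in CD-vehicle skin. In CD-fed mice 4 of the IMQ arrays lay below every vehicle array, and CD-IMQ mouse 2 lay above 3 of them. In HFD-fed mice the change was -0.053 ± 0.29 (limma adjusted p = 0.967). The change in CD-fed mice was -0.87 ± 0.29, just outside the threshold (limma adjusted p = 0.0597). It passed without HFD-IMQ mouse 4 (limma adjusted p = 0.0349), HFD-IMQ mouse 5 (0.0460), CD-IMQ mouse 2 (0.00949) or CD-vehicle mouse 1 (0.0387).

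**Figure D2:**
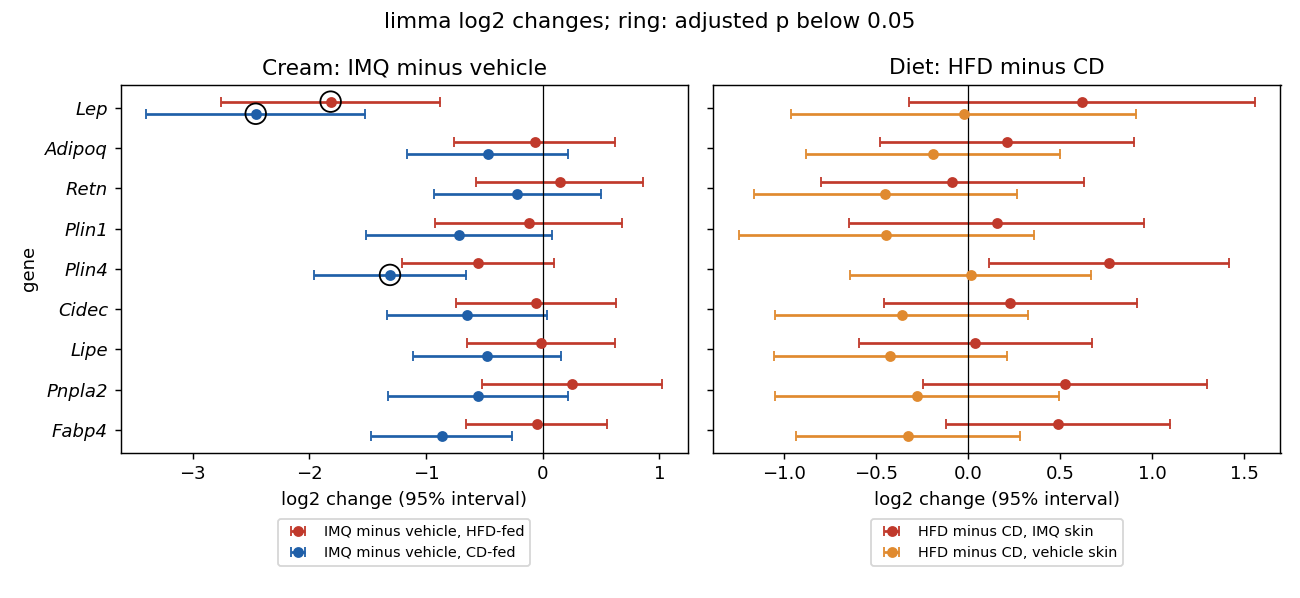
Log2 change (axis in log2 units) of each of the 9 adipocyte genes, with points for the limma estimate and bars for its 95% interval: IMQ minus vehicle in HFD-fed and CD-fed mice in one panel, HFD minus CD in IMQ-treated and vehicle-treated skin in the other. The *Lep* intervals lie wholly below 0 in both diets, at -2.76 to -0.88 with HFD and -3.40 to -1.52 with CD.

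HFD was then set against CD within each cream. In vehicle-treated skin 0 of the 9 genes were called by limma, where 2.18% of all genes were called. An unadjusted limma p below 0.05 was held by 0 of the 9, against 14.7% of all genes. The lowest adjusted p of the 9 was 0.584. The estimates were negative for 8 genes and positive for 1, with a median of -0.32 against -0.0080 over all genes. *Lep* averaged 8.07 ± 0.44 in HFD-vehicle and 8.10 ± 0.86 in CD-vehicle skin, a change of -0.023 ± 0.45 (limma adjusted p = 0.990). Its 95% interval, -0.96 to 0.91, leaves room for nearly a doubling in either direction. The other hormone genes gave -0.19 ± 0.33 for *Adipoq* and -0.45 ± 0.34 for *Retn* in the same comparison.

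In IMQ-treated skin 0 of the 9 genes were called, as were 0 of all genes, which is 0%. An unadjusted limma p below 0.05 was held by 2289 genes (10.3%), 1 of them among the 9. The lowest adjusted p of the 9 genes was 0.407. Estimates were positive for 8 genes and negative for 1, with a median of 0.23, and without HFD-IMQ mouse 4, 5 were negative and the median was -0.052. *Plin4* averaged 7.45 ± 0.65 in HFD-IMQ and 6.68 ± 0.58 in CD-IMQ skin (SD, n = 5 each). Its difference was 0.77 ± 0.32, with a 95% interval of 0.11 to 1.42 before any adjustment and a limma adjusted p of 0.407. *Lep* differed by 0.62 ± 0.45 (95% interval -0.32 to 1.56, limma adjusted p = 0.651).

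The interaction asks whether the IMQ change differed between the diets, and it is the IMQ change in HFD-fed mice minus that in CD-fed mice. It was called for 0 of the 9 genes by limma, with 0 at an unadjusted p below 0.05, where 0.663% of all genes were called and 15.9% had an unadjusted p below 0.05. The estimates of all 9 genes were positive, between 0.36 and 0.81 with a median of 0.60, and the lowest adjusted p was 0.341. Without HFD-IMQ mouse 4 they lay between 0.036 and 0.58 with a median of 0.31, and without CD-IMQ mouse 2 the median was 0.90. For *Lep* the interaction was 0.64 ± 0.64 (95% interval -0.68 to 1.97, limma adjusted p = 0.674). For *Plin4* it was 0.75 ± 0.45 (limma adjusted p = 0.425), so the presence of a call in CD-fed mice and its absence in HFD-fed mice was not itself a difference that passed the test. For *Fabp4* it was 0.81 ± 0.41 and for *Pnpla2* 0.81 ± 0.53 (limma adjusted p = 0.341 and 0.472). These 5 comparisons share their groups, so their estimates are not independent.

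Within groups the 9 genes moved together. With each group mean subtracted, Pearson's r over the 20 arrays was between 0.76, for *Lep* with *Adipoq*, and 0.98, for *Plin1* with *Lipe*, with a median of 0.90 over the 36 pairs. The pairs with *Lep* had a median of 0.84 and ranged between 0.76 and 0.89. All pairs share the same arrays, and these values are descriptive. All 9 genes lay above their group mean in HFD-IMQ mouse 4, by 1.18 log2 units on average, and in CD-IMQ mouse 2, by 1.09. The same was true of CD-IMQ mouse 5, HFD-vehicle mouse 5 and CD-vehicle mouse 4, by 0.27, 0.42 and 0.65. All 9 lay below it in HFD-IMQ mouse 5, by 0.85, and in CD-vehicle mouse 1, by 0.76. HFD-vehicle mice 3 and 4 and CD-IMQ mice 1, 3 and 4 also had 0 of the 9 above their group mean.

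**Figure D3:**
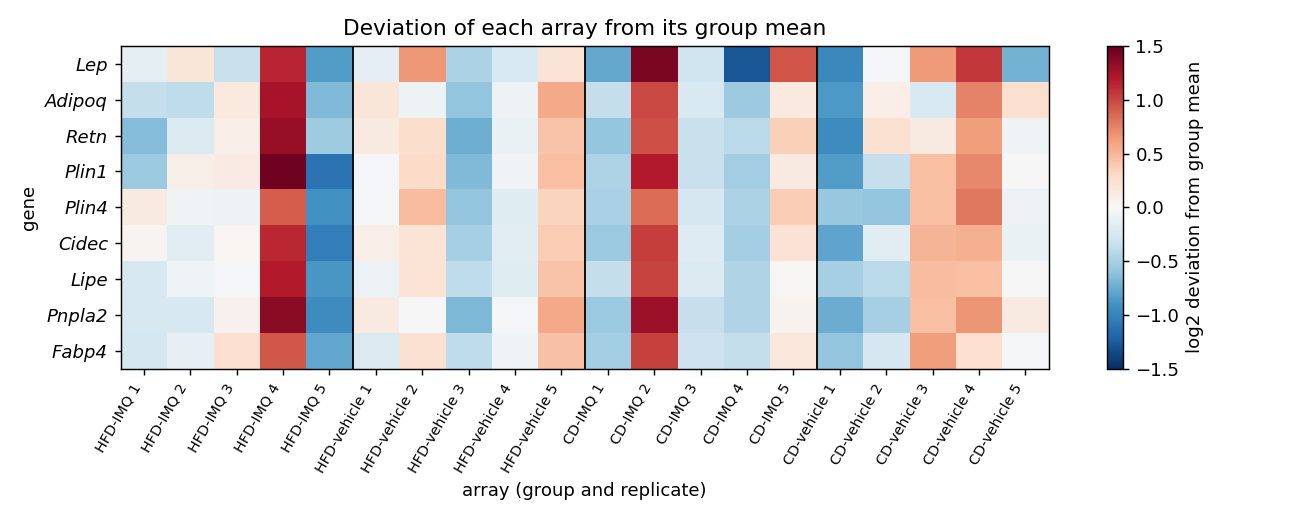
Deviation of each of the 9 adipocyte genes from its own group mean, in log2 units, on each of the 20 arrays, ordered by group. In HFD-IMQ mouse 4 and CD-IMQ mouse 2 the 9 genes stand above their group means together, by 1.18 and 1.09 on average.

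*Lep* and *Plin4* were therefore also read against the other 7 genes of the same array. This reading, chosen with the values in view, is a description and carries no test. The mean of the other 7 genes was 8.19 ± 0.77 in HFD-IMQ, 8.18 ± 0.38 in HFD-vehicle, 7.97 ± 0.65 in CD-IMQ and 8.54 ± 0.51 in CD-vehicle skin (SD, n = 5 each). *Lep* minus that mean was -1.94 ± 0.29 in HFD-IMQ and -0.11 ± 0.31 in HFD-vehicle skin, and -2.33 ± 0.61 in CD-IMQ and -0.44 ± 0.49 in CD-vehicle skin. Its highest value in an IMQ array was -1.55 and its lowest in a vehicle array -1.18, so the creams did not overlap in either diet. The lowest IMQ value was -3.16 and the highest vehicle value 0.39. *Plin4* minus the mean of the 7 was -0.75 ± 0.30 in HFD-IMQ and -0.18 ± 0.18 in HFD-vehicle skin, with ranges of -1.07 to -0.29 and -0.31 to 0.13 that overlapped. It was -1.29 ± 0.16 in CD-IMQ and -0.54 ± 0.26 in CD-vehicle skin, with ranges of -1.52 to -1.07 and -0.94 to -0.32 that did not.

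**Figure D4:**
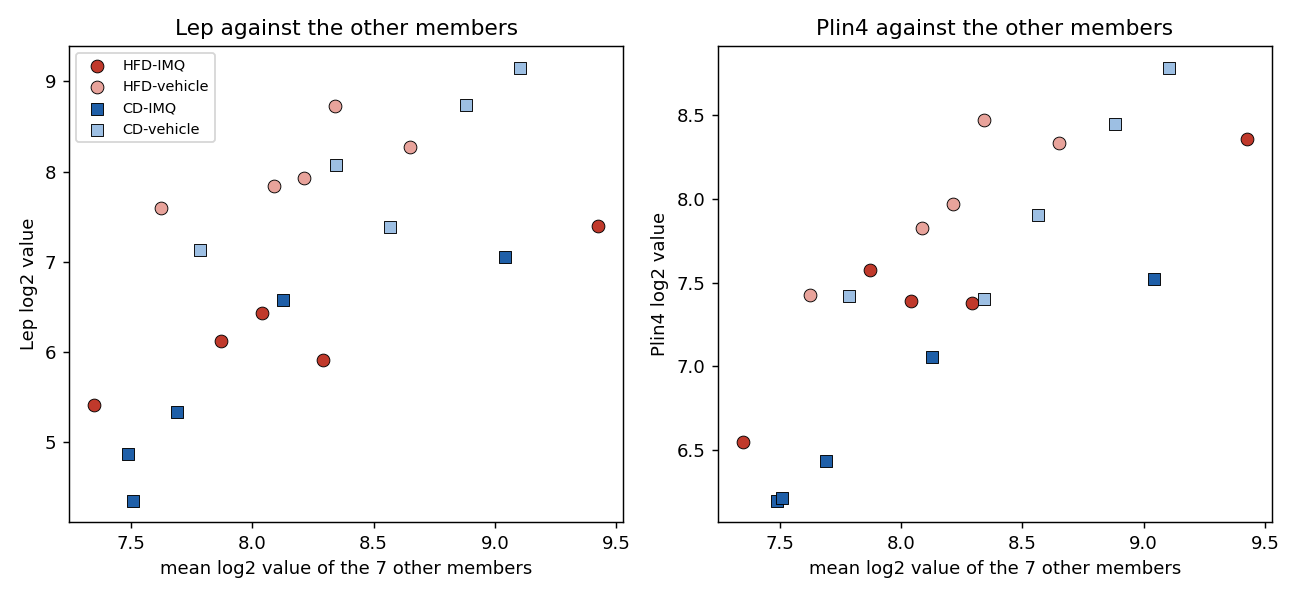
Log2 value of *Lep* and of *Plin4* (vertical axes) against the mean log2 value of the other 7 adipocyte genes on the same array (horizontal axes). Each point is 1 mouse, coloured by group: HFD-IMQ, HFD-vehicle, CD-IMQ or CD-vehicle. The difference of *Lep* from that mean, not drawn itself, is at or below -1.55 in all IMQ arrays and at or above -1.18 in all vehicle arrays.

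With the *Adipoq* value of each array as a covariate, a fit chosen after the values were seen, the *Lep* change was -1.75 ± 0.30 in HFD-fed mice (limma adjusted p = 0.000708). In CD-fed mice it was -1.97 ± 0.32 (limma adjusted p = 0.000286). The *Plin4* change in that fit was -0.50 ± 0.20 in HFD-fed mice (limma adjusted p = 0.157) and -0.95 ± 0.21 in CD-fed mice (0.00432). The same members were called as without the covariate, *Lep* in both diets and *Plin4* in CD-fed mice. *Adipoq* is itself a member, and its own change after IMQ was -0.070 with HFD and -0.47 with CD. This fit cannot tell fewer adipocytes from less RNA per adipocyte, and its p-values are descriptive.

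The genes whose deviations from the group means were most like those of *Lep* over the 20 arrays were *Lpgat1* (Pearson's r = 0.95), *Sncg* (0.94), *Npr3* (0.92) and *Tshr* (0.91), followed by *Hp*, *Alb*, *Aoc3* and *Trarg1* (0.90 to 0.88). *Npr3* encodes the clearance receptor of natriuretic peptides, and it changed by -1.42 ± 0.53 after IMQ in HFD-fed mice and by -2.92 ± 0.53 in CD-fed mice, where it was called (limma adjusted p = 0.136 and 0.00074). *Lpgat1*, which encodes a lysophospholipid acyltransferase, lay just outside the threshold in HFD-fed mice at -0.88 ± 0.26 (limma adjusted p = 0.0501) and was called in CD-fed mice at -1.18 ± 0.26 (0.00494). *Tshr*, the thyrotropin receptor gene, was called in CD-fed mice at -1.22 ± 0.37 (0.0330), and *Hp*, the haptoglobin gene, in HFD-fed mice at -0.91 ± 0.25 (0.0297), by the same test. In all, 1 of these 8 genes was called for IMQ in HFD-fed and 3 in CD-fed mice, where 5.89% and 10.9% of all genes were called. The genes most like *Adipoq* were *Ephx2*, *Dhdh*, *Agpat2*, *Lgals12*, *Dram1*, *Car5b*, *Ech1* and *Aldh6a1*, with r between 0.94 and 0.93, and limma called 0 of these 8 for IMQ in either diet. Whether the lists differ was not tested.

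*Ucp1*, which encodes the uncoupling protein of brown and beige adipocytes, was singled out after its values were seen. It read 2.76, 2.62, 8.14, 9.58 and 3.18 in HFD-IMQ skin, against 2.23, 2.52, 2.37, 2.69 and 2.79 in HFD-vehicle skin. It read 2.48, 7.16, 2.84, 2.71 and 2.90 in CD-IMQ skin, against 2.55, 2.75, 2.77, 3.05 and 2.64 in CD-vehicle skin. HFD-IMQ mice 3 and 4 and CD-IMQ mouse 2 stood far above the rest, and the other 17 arrays lay near the array medians. The mean change did not pass the test, at 2.74 ± 1.05 in HFD-fed and 0.86 ± 1.05 in CD-fed mice (limma adjusted p = 0.152 and 0.678). *Cox7a1*, which encodes a cytochrome oxidase subunit of brown fat and muscle, read 8.17 in HFD-IMQ mouse 4 and 6.36 in mouse 3, against 5.16 to 5.37 in the other HFD-IMQ mice. In CD-IMQ mouse 2 it read 6.24, against 5.65 to 6.20 in the other CD-IMQ mice. It read 5.54 to 5.78 in HFD-vehicle and 5.67 to 6.59 in CD-vehicle skin. CD-vehicle mice 4 and 5 (6.30 and 6.59) lay above CD-IMQ mouse 2, and mouse 5 lay above HFD-IMQ mouse 3 as well. *Plin5*, the perilipin gene of oxidative tissues, read 5.48 and 4.26 in HFD-IMQ mice 4 and 3, against 3.04 to 3.54 in the other HFD-IMQ mice. In CD-IMQ mouse 2 it read 4.42, against 2.77 to 3.77 in the other CD-IMQ mice. *Ppargc1a*, which encodes a coactivator of thermogenic genes, also ranked highest within the groups in these arrays. It read 4.06 and 2.69 in HFD-IMQ mice 4 and 3, against 2.36 to 2.67 in the other HFD-IMQ mice. CD-IMQ mouse 2 lay above the other CD-IMQ mice, at 2.23 to 2.72. HFD-vehicle mice 3 and 5 (2.73 and 2.72) and CD-vehicle mouse 3 (2.89) lay above HFD-IMQ mouse 3. Of the 8 in the brown and beige fat list, *Dio2*, *Prdm16*, *Tmem26*, *Tbx1* and *Elovl3* did not follow *Ucp1* in all 3 arrays. CD-IMQ mouse 2 had the lowest value of its group for *Prdm16* (3.08), *Tmem26* (3.33), *Tbx1* (4.64) and *Elovl3* (9.18), and HFD-IMQ mouse 3 the lowest for *Elovl3* (8.03).

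Mice 4 of HFD-IMQ and 2 of CD-IMQ were also those in which the 9 adipocyte genes stood highest in their groups. Without the 3 arrays of high *Ucp1*, an exclusion chosen after the values were seen, 7 of the 9 genes were lower in CD-IMQ than in CD-vehicle skin by limma, where 7.34% of all genes were called lower and 11.2% in either direction. The 5 genes added were *Plin1* at -1.02 (adjusted p = 0.0259), *Cidec* at -0.91 (0.0304), *Lipe* at -0.73 (0.0337), *Pnpla2* at -0.88 (0.0390) and *Fabp4* at -1.12 (0.00241). *Lep* read -2.81 and *Plin4* -1.52 in that fit, while *Adipoq* and *Retn* did not pass (adjusted p = 0.0735 and 0.306). In HFD-fed mice *Lep* alone of the 9 was called without those arrays, at -2.09 (adjusted p = 0.00755), where 1.47% of all genes were called lower, and the diet comparisons and the interaction called 0 of the 9. Because the 9 genes were high in 2 of the removed arrays, the count of 7 depends on that exclusion. That fit describes how the calls depend on these 3 arrays, and why *Ucp1* was high in them was not tested.

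Among 80 other genes of adipocyte hormone action and fat storage, in 7 lists, 71 were measured. The lists were chosen with earlier results of these data known, and their genes share the same arrays. Their counts below therefore carry no test against the shares of all genes. In HFD-fed mice IMQ left 4 of the 71 lower and 3 higher, 5.63% and 4.23%, where 2.24% and 3.65% of all genes were called in those directions. In CD-fed mice 16 were lower and 2 higher, 22.5% and 2.82%, against 7.02% and 3.91% of all genes. The median log2 change of the 71 was 0.082 in HFD-fed and -0.22 in CD-fed mice. In CD-fed mice the count of called genes fell to 9 without CD-IMQ mouse 4 or CD-vehicle mouse 3 and to 11 without CD-IMQ mouse 3.

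The list of hormone receptors and insulin signalling held 10 genes, of which IMQ lowered 1 and raised 1 in HFD-fed mice and lowered 5 in CD-fed mice. Of all genes 2.24% were called lower and 3.65% higher with HFD, and 7.02% lower with CD. *Lepr*, which encodes the leptin receptor, had log2 values of 4.34, 5.25, 4.44, 4.59 and 4.63 in HFD-IMQ skin, against 6.19, 6.65, 5.67, 6.60 and 6.08 in HFD-vehicle skin. It had 5.83, 4.68, 4.77, 5.03 and 4.80 in CD-IMQ skin, against 6.68, 6.01, 5.17, 5.81 and 6.13 in CD-vehicle skin. The HFD groups did not overlap, a pattern that 2.39% of all genes showed as lower in HFD-fed mice. CD-IMQ mouse 1 lay within the CD-vehicle range. *Lepr* changed by -1.59 ± 0.25 with HFD (limma adjusted p = 0.000239) and -0.94 ± 0.25 with CD (0.0168), the second lost without CD-vehicle mouse 1 (0.0574). The ligand gene and its receptor gene were both lower after IMQ in each diet. *Irs1* and *Irs2*, which encode insulin receptor substrates, fell by 1.21 and 0.90 on the log2 scale in CD-fed mice (limma adjusted p = 3.02e-05 and 0.00538). *Insr*, the insulin receptor gene, and *Cdh13*, the gene of the adiponectin-binding T-cadherin, were the other 2 lower in CD-fed mice. *Adipor1*, an adiponectin receptor gene, rose by 0.51 in HFD-fed mice (limma adjusted p = 0.0109).

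Of 11 other secreted factors measured, IMQ lowered 1 and raised 1 in HFD-fed mice and lowered 3 in CD-fed mice. The called shares of all genes were 2.24% lower and 3.65% higher with HFD, and 7.02% lower with CD. *Retnla*, which encodes RELM alpha, a relative of resistin made by adipose tissue and by alternatively activated macrophages, had log2 values of 6.66, 7.67, 6.62, 8.52 and 7.61 in HFD-IMQ skin, against 9.49, 10.14, 9.13, 9.73 and 9.80 in HFD-vehicle skin. It had 8.22, 8.29, 7.96, 7.68 and 7.72 in CD-IMQ skin, against 9.35, 9.82, 10.43, 10.61 and 9.88 in CD-vehicle skin. All IMQ arrays lay below all vehicle arrays, with changes of -2.24 ± 0.29 and -2.04 ± 0.29 in HFD-fed and CD-fed mice (limma adjusted p = 2.33e-05 and 5.75e-05). Of all genes 2.39% lay lower without overlap in HFD-fed mice and 5.1% in CD-fed mice. *C1qtnf3*, which encodes the adipokine CTRP3, read 6.40, 6.82, 5.96, 5.61 and 6.45 in HFD-IMQ skin, against 5.15, 4.69, 4.98, 4.83 and 5.35 in HFD-vehicle skin. It rose by 1.25 ± 0.19 in HFD-fed mice (limma adjusted p = 0.000185). In CD-IMQ skin it read 5.15, 5.77, 4.74, 5.20 and 5.28, against 5.94, 5.55, 5.63, 5.59 and 5.63 in CD-vehicle skin, a change of -0.44 ± 0.19 that did not pass (limma adjusted p = 0.165). The interaction of *C1qtnf3* was 1.68 ± 0.27 (limma adjusted p = 0.00508). *Rbp4*, the gene of the retinol carrier, and *Nampt*, the gene of an NAD-producing enzyme that fat also secretes, were the other 2 lower in CD-fed mice, at -1.01 ± 0.32 and -0.55 ± 0.15 (limma adjusted p = 0.0436 and 0.0215). They kept the call in 7 and 17 of the 20 fits that left out 1 array, with adjusted p up to 0.122 and 0.0751. *Nampt* had an interaction of 0.93 ± 0.21 (limma adjusted p = 0.0460), which was kept in 7 of those fits, with adjusted p up to 0.0890.

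Among 12 adipogenic transcription factors, limma called 0 in HFD-fed mice, with 1 at an unadjusted p below 0.05, where 16.7% of all genes had one. In CD-fed mice IMQ lowered 4, where 7.02% of all genes were called lower. *Cebpd*, which encodes C/EBP delta, an early factor of fat cell formation, read 4.31, 4.33, 3.94, 4.08 and 4.24 in HFD-IMQ skin, against 3.63, 3.88, 3.77, 3.71 and 4.30 in HFD-vehicle skin. It read 4.15, 3.63, 4.06, 4.04 and 4.12 in CD-IMQ skin, against 5.39, 5.55, 6.19, 5.20 and 5.05 in CD-vehicle skin. The CD-vehicle arrays lay above all 15 others. The change after IMQ was 0.32 ± 0.17 with HFD (limma adjusted p = 0.369) and -1.47 ± 0.17 with CD (4.56e-06). HFD against CD gave -1.61 ± 0.17 in vehicle-treated skin (limma adjusted p = 1.64e-05), and the interaction was 1.80 ± 0.24 (0.00136). *Ebf1* and *Ebf2*, which encode early B-cell factors that also act in adipocyte differentiation, fell by 0.94 and 0.85 on the log2 scale in CD-fed mice (limma adjusted p = 0.000630 and 0.000726). The *Ebf2* call was lost with the mean of all its features (0.164), and *Klf4* was the other gene called lower there. *Pparg*, the master regulator gene of adipocytes, gave -0.82 ± 0.35 there and did not pass (limma adjusted p = 0.149), nor did *Cebpa*, at -0.19 ± 0.17 (0.533).

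**Figure D5:**
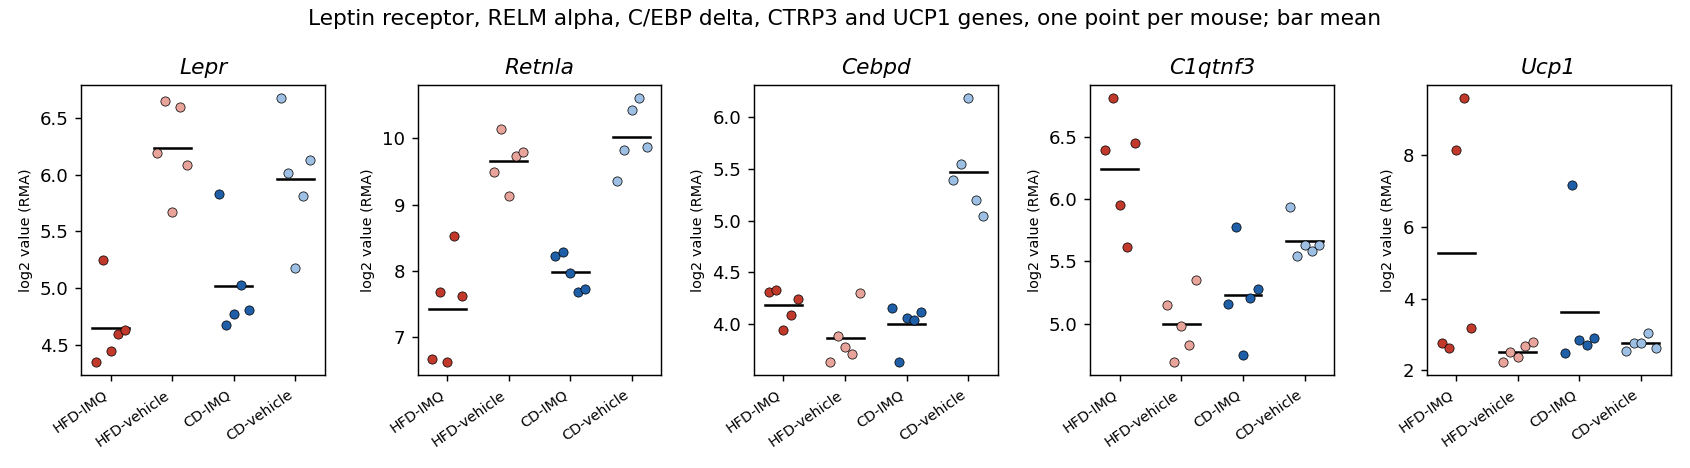
Log2 array value (vertical axes) of *Lepr*, *Retnla*, *Cebpd*, *C1qtnf3* and *Ucp1* in the HFD-IMQ, HFD-vehicle, CD-IMQ and CD-vehicle groups, with 1 point per mouse and a bar at the group mean. *Ucp1* stands above 7 in 3 IMQ arrays and near the array medians in the other 17.

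Genes of fat storage outside the 9 were counted in the same way, again with 16.7% of all genes at an unadjusted limma p below 0.05 in HFD-fed mice. By adjusted p, 2.24% of all genes were called lower and 3.65% higher with HFD. With CD these shares were 7.02% and 3.91%. Of 11 other droplet proteins 0 were called in HFD-fed mice, with 2 at an unadjusted p below 0.05, and 3 fell in CD-fed mice, all of them caveolae genes, *Cav1*, *Cavin1* and *Cavin2*, at -0.92 ± 0.26, -0.40 ± 0.13 and -1.02 ± 0.29 (limma adjusted p = 0.0224, 0.0475 and 0.0226). The call was kept in 16, 7 and 15 of the 20 fits that left out 1 array, with adjusted p up to 0.0691, 0.140 and 0.0700. Caveolae are membrane pits that adipocytes and endothelial cells both have in number. *Plin2*, the perilipin gene found in most cell types, gave 0.32 ± 0.16 after IMQ in CD-fed mice and did not pass (limma adjusted p = 0.228). Of 7 lipolysis genes 1 fell in each diet, *Mgll*, the monoglyceride lipase gene, at -0.94 ± 0.23 with HFD and *G0s2*, an inhibitor gene of adipose triglyceride lipase, at -0.96 ± 0.27 with CD (limma adjusted p = 0.0115 and 0.0234). The *G0s2* call was kept in 16 of the 20 such fits, with adjusted p up to 0.0746. Of 12 genes of triglyceride uptake and synthesis 1 rose in each diet, *Fabp5*, the fatty acid binding protein gene of keratinocytes, by 0.84 ± 0.19 with HFD and 1.56 ± 0.19 with CD (limma adjusted p = 0.00663 and 6.13e-06). That rise with HFD was not called when *Fabp5* was read from its feature of highest variance (0.275). Of 8 brown and beige fat genes, *Tbx1* fell in HFD-fed mice, at -0.67 ± 0.17, and *Elovl3*, a fatty acid elongase gene that sebaceous glands also express, rose in CD-fed mice, at 1.11 ± 0.34 (limma adjusted p = 0.0142 and 0.0403). The *Tbx1* call was lost in a fit of the 2 HFD groups alone (limma adjusted p = 0.0514) and without the high-*Ucp1* arrays (0.0643). The *Elovl3* call was kept in 14 of the 20 fits that left out 1 array, with adjusted p up to 0.126.

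HFD against CD in vehicle-treated skin called 4 of the 71 genes, 1 higher and 3 lower, or 1.41% and 4.23%, where 1.22% and 0.956% of all genes were called. They were *Fabp5*, higher, and *Cebpd*, *Klf4* and *Irs1*, lower, and leaving out 1 array gave counts between 1 and 6. *Cebpd* was called in all 20 of those fits, *Irs1* in 6, *Fabp5* in 4 and *Klf4* in 2. The same comparison in IMQ-treated skin called 0 by limma, with 10 at an unadjusted p below 0.05, where 10.3% of all genes had one. The interaction called 3, all positive, where 0.473% of all genes were called positive: *Cebpd*, *C1qtnf3* and *Nampt*.

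Markers of other cell types, also chosen with earlier results of these data known, were counted in the same comparisons. Of all genes, IMQ left 2.24% lower and 3.65% higher in HFD-fed mice, and 7.02% lower and 3.91% higher in CD-fed mice. In vehicle-treated skin 1.22% of all genes were higher with HFD. Of 9 macrophage markers IMQ raised 8 in HFD-fed and 5 in CD-fed mice; their mean over an array was 8.47 to 9.00 in HFD-IMQ, 7.38 to 8.08 in HFD-vehicle, 8.28 to 8.69 in CD-IMQ and 7.85 to 8.19 in CD-vehicle skin. Of 9 fibroblast and preadipocyte markers IMQ lowered 2 in HFD-fed mice, and lowered 5 and raised 1 in CD-fed mice. Their array means were 7.73 to 8.31 in HFD-IMQ, 7.96 to 8.42 in HFD-vehicle, 7.71 to 8.06 in CD-IMQ and 8.16 to 8.50 in CD-vehicle skin. Of 8 markers of growing (anagen) hair follicles IMQ lowered 8 in HFD-fed and 5 in CD-fed mice, and 8 were higher in HFD-vehicle than in CD-vehicle skin. Their array means were 2.73 to 4.39 in HFD-IMQ, 6.96 to 9.33 in HFD-vehicle, 2.74 to 3.29 in CD-IMQ and 2.82 to 5.95 in CD-vehicle skin. In both IMQ groups 4 of these 8 had group means at or below the array medians.

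Of 11 skeletal muscle markers IMQ lowered 1 in HFD-fed and 2 in CD-fed mice, with array means of 5.96 to 7.64 in HFD-IMQ, 7.45 to 7.92 in HFD-vehicle, 6.89 to 8.18 in CD-IMQ and 7.23 to 8.56 in CD-vehicle skin. Of 9 sebaceous gland markers IMQ lowered 4 and raised 1 in HFD-fed mice, and lowered 1 and raised 1 in CD-fed mice. Of 8 endothelial markers 1 rose in HFD-fed and 1 fell in CD-fed mice, where 3.65% of all genes were called higher with HFD and 7.02% lower with CD. Of 8 suprabasal keratinocyte markers 2 rose and 1 fell in HFD-fed mice, and 6 rose and 1 fell in CD-fed mice. Of 7 mammary epithelium markers limma called 0 for IMQ in either diet, and 3 had group means at or below the array medians in every group. An unadjusted limma p below 0.05 was held by 2 in HFD-fed and 1 in CD-fed mice, against 16.7% and 23.6% of all genes. The part of these cell types in the changes of the adipocyte genes was not tested.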

How the data were processed

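The deposited values are log2 expression values from Affymetrix arrays, made by the authors with robust multi-array averaging (RMA) and the affy package, per the submitters' processing notes, which give no versions. Per the labels, total RNA was extracted with Trizol and 300 ng was labelled with the GeneChip WT PLUS kit. Scan batches were not given in the sources used here, and whether all arrays were normalised together was not either. Of 41345 features, 23521 carried 1 gene symbol, 1814 several and 16010 none in the platform annotation, and 22180 genes were tested, each by its single-symbol feature of highest mean; 1082 genes had more than 1. No filter on dim genes was applied.

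Group means were fitted over all 20 arrays with limma 3.58.1 (lmFit, contrasts, eBayes) in R 4.3.3, and p-values were adjusted by Benjamini-Hochberg over all genes of a contrast. A gene was called at an adjusted p below 0.05. The contrasts were IMQ minus vehicle in each diet, HFD minus CD with each cream, and the interaction. Errors after a log2 change are standard errors, and those after a mean are standard deviations over 5 mice. The median standard error of a 2-group change over all genes was 0.136. The fit was tested on simulated data. Tables, sequences and figures used Python 3.11.15 with pandas 2.3.3 and matplotlib 3.10.9.

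Of each gene list, up to 3 called genes with the largest change per contrast were named, and further names were added after the values were seen. For likeness, the 8 genes of highest correlation with *Lep* and with *Adipoq* were taken, leaving out predicted genes and small RNAs. The 10 genes, the 7 pathway lists (80 genes) and the marker lists were chosen with earlier results of these data known. Replicate numbers were not treated as pairs, because 4 of 30 same-number pairs of arrays had a correlation of residuals above 0.1. Alternatives were another normalization, array centring, other choices of feature, leaving out dim genes, the replicate block, other eBayes settings, array weights, only the groups compared, and leaving out each array.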

Additional observations from a re-analysis of the deposited data

Results flagged for a closer look

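Single arrays stood apart from the other 4 of their group for 6 of 84 gene and group combinations tested by Dixon's ratio, and for 0 of the 36 that concern the 9 adipocyte genes. Chance alone marks about 1 in 20, and the genes tested outside the 9 were picked with results of these data known. *Ucp1* read 7.16 in CD-IMQ mouse 2, far above its group. The ratio looks for a single array, and it did not flag *Ucp1* in HFD-IMQ mice 3 and 4 (8.14 and 9.58). In HFD-IMQ mouse 4, *Ppargc1a*, which encodes a coactivator of thermogenic genes, read 4.06 and *Dio2*, which encodes a thyroid hormone deiodinase, read 3.41, each the highest of its group. *Cebpd* read 3.63 in CD-IMQ mouse 2 and *Tbx1* read 4.28 in CD-vehicle mouse 3, each the lowest of its group. *C1qtnf3* read 5.94 in CD-vehicle mouse 1, the highest of its group.

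The IMQ change differed between HFD-fed and CD-fed mice, by the limma interaction, for *Cebpd* at 1.80, *C1qtnf3* at 1.68 and *Nampt* at 0.93 log2 units. Of all genes 0.663% were called for it. The *Nampt* call was kept in 7 of the 20 fits that left out 1 array. It was lost after a further quantile normalization (limma adjusted p = 0.0624), with the replicate block (0.0814) and without the high-*Ucp1* arrays (0.0677). For 0 of the 9 adipocyte genes did the interaction pass the test.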

How the results depend on the processing

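Of the 45 changes of the 9 genes (5 comparisons each), 0 that were called changed sign under the 31 alternatives that could be run. Counted over changes and alternatives together, a call was lost 2 times and gained 10 times, of which 5 came from leaving out the high-*Ucp1* arrays and the others were of *Fabp4*. The lost call was that of *Lep* in HFD-fed mice, where the number of genes of the 9 called ranged between 0 and 1 over the fits that left out 1 array; in CD-fed mice it ranged between 2 and 3. Without the 3 arrays of high *Ucp1* the count in CD-fed mice was 7. Uncalled estimates changed sign in 58 cases among 16 results. Over the fits that left out 1 array, genes called in all numbered 990 to 1370 for IMQ with HFD, 1741 to 2636 for IMQ with CD, 231 to 574 for diet with vehicle, 0 to 20 for diet with IMQ and 57 to 198 for the interaction. For diet with IMQ, 1 gene was called with the mean of all features, without dim genes, or with trend and robust eBayes, 6 with *Adipoq* as a covariate and 2 without the high-*Ucp1* arrays, against 0. For diet with vehicle, 137 were called from the 2 groups alone, against 483. The split of higher and lower calls moved with scaling: for IMQ with CD it was 868 and 1556, against 1108 and 1301 after a further quantile normalization, and for the interaction 105 and 42, against 58 and 41 after that step and 134 and 30 after median centring. The cause was not tested for any of these. With the replicate block 1209 genes were called for IMQ with HFD, 2247 for IMQ with CD, 0 for diet with IMQ, 361 for diet with vehicle and 124 for the interaction, and the counts among the 9 genes were 1, 2, 0, 0 and 0 in that order. Same-number arrays had correlations of -0.217 to 0.320, so the numbers were not read as a pairing. The number of arrays limits precision: the *Lep* interval between diets with vehicle spans -0.96 to 0.91.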
